A study of Mus musculus with 4 samples.

Results

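The genes described here are 8 transcription factor genes that stand at the output side of the circadian clock or link it to its targets: Dbp, Tef, Hlf, Nfil3, Bhlhe40, Bhlhe41, Ciart and Rora. They were taken by gene name from the non-control spots of the scanner files, where Ciart is called Gm129 in the older annotation of 1 slide. All 8 were on the array, with 11 probes of 1 spot each (2 probes each for Dbp, Bhlhe41 and Rora), among the 55681 probes measured, and were 8 of 34607 genes named. By its brightest probe every one of the 8 was well above background on all 4 arrays, so none entered the test through 1 group alone, and they made up 8 of the 25296 genes tested.

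The clock is a transcriptional feedback loop in which CLOCK and BMAL1 (the product of Arntl) switch on genes through a DNA element called the E-box, and the PER and CRY proteins shut this activity off. The proteins of Dbp, Tef and Hlf are PAR bZIP activators that bind a second element, the D-box, and NFIL3 (also called E4BP4) represses from the same element. DEC1 and DEC2, made from Bhlhe40 and Bhlhe41, and CHRONO, made from Ciart, repress the activity of CLOCK and BMAL1 at E-boxes. RORA activates Arntl through another element, on which the REV-ERB repressors compete. In mouse kidney, PAR bZIP factors are known for carrying clock timing to genes of salt and water handling.

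Kidneys of female BALB/C mice, 6 weeks old at the start, were compared between MN, an experimental membranous nephropathy in which immune complexes build up on the outer face of the glomerular filter, and control. Every mouse, control mice included, had been immunized with 0.2 mg of cationic bovine serum albumin (cBSA) in complete Freund's adjuvant. The MN group (2 arrays) then had intravenous cBSA, 13 mg/kg, 3 times weekly over 6 weeks, beginning 2 weeks after that immunization, and the control group (2 arrays) had saline on that schedule, which another label calls PBS. By the labels, the intravenous injection is what sets the groups apart. Whether the arrays represent separate animals is not stated, and p-values then reflect only the spread among these 4 samples, which may be technical. No label gives the hour of kidney collection, and its part in the values below was not tested.

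Total kidney RNA was labelled with Cy3 and hybridized to 1-colour Agilent arrays, 1 sample each. Levels below are log2 of the processed spot signal relative to the 75th percentile of the same array, so that 0 is that percentile; probes differ in how well they bind, so a probe's level is compared between arrays, and between genes only differences are set side by side. Replicate 1 of both groups lay on slide 1 and replicate 2 of both on slide 2, so differences are also given within each slide. The second control array stood apart in having 79.5% of non-control spots well above background, against 63.1% to 65.9% on the other 3, and the results that lead are given without it too. The second MN array stood apart in its 75th percentile signal, 1204 against 737 to 818 on the other 3. Without that MN array the differences of Ciart, Nfil3 and Bhlhe40, described below, were 0.90, 0.48 and 0.47. In the deposited value table the columns of replicates 1 and 2 followed each other's scanner file in both groups, which does not touch group means. All 7 kidney markers chosen to check the tissue (Umod among them) were well above background on every array, with summed levels of 665 and 754 times the 75th percentile in MN and 602 and 755 times in control. Sums on the same scale were 15.8 and 16.3 in MN against 11.1 and 10.9 in control for 8 adipocyte markers (6 higher in MN; in control, Adipoq and Retn were not well above background). Slc2a4, at 3.48 and 3.43 in MN against 3.43 and 3.40 in control (log2), makes up most of that sum and hides wider differences of either sign. Cfd was at 1.59 and 1.99 in MN, against -5.29 and -4.98 in control (well above background on 1 control array). Cfd and Adipoq were among the 5 genes of the whole array that limma called (adjusted p = 0.046 each). Both passed the filter through the MN group only, where they are high. With a filter on all 4 arrays 0 genes were called, so these calls are not used as support. Cidec was 2.59 ± 0.13 higher on the log2 scale (adjusted p = 0.0665 with limma), and Plin1 0.40 ± 0.13 higher. Lipe and Lep had lower values in MN, with differences of -0.26 ± 0.14 and -0.12 ± 0.49. The sums were 3.52 and 3.73 in MN against 1.49 and 1.56 in control for the 6 of 8 plasma cell markers matched by name (4 higher; Tnfrsf17 not well above background on any array). Jchain had the widest difference of these, 3.23 ± 0.15, followed by Derl3 (1.19 ± 0.13) and Mzb1 (0.85 ± 0.36). Prdm1 was at 0.08 ± 0.28, with opposite signs on the slides. Sdc1 went the other way, at -0.42 ± 0.15, with both MN arrays below both control arrays. For 7 liver markers the sums were 35.5 and 38.0 in MN against 22.4 and 21.3 in control. All 7 were higher in MN, although Apoa1 was not well above background on any array. The part of these other tissues in the values of the 8 genes was not tested, and in whole-tissue RNA fewer cells of a type and less RNA per cell cannot be told apart.

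The comparison asked how the 8 genes differed between MN and control kidneys. Ciart had the widest difference and was about 2.14-fold higher in MN, Nfil3 and Bhlhe40 were 1.47-fold and 1.39-fold higher, the 3 PAR bZIP genes and Rora lay within 1.17-fold of control, and Bhlhe41 alone had a lower value in MN, at 0.839 of control. None of the 8 passed limma's test over all genes (adjusted p from 0.405 for Ciart to 1), and 0 passed when slide was a block (adjusted p from 0.169 to 0.648). The same test called 5 genes higher, or 0.0198% of those tested, and 0 lower. Before adjustment, 3 of the 8 (Ciart, Nfil3 and Bhlhe40) had a higher value with p under 0.05 and 0 a lower one, where 3.55% of all genes were higher and 3.49% lower. With the slide as a block the counts were again 3 and 0, against 6.28% and 9.04% of all genes.

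The dimmer probe of Rora, given below, had opposite signs on the slides, and the counts here use each gene's brightest probe. By that probe the signs were alike on the slides for every member. Thus 0 of the 8 had opposite signs, as 36.6% of all genes did. Of the 8, 7 were higher in MN on both slides, as were 23.2% of all genes, and 1, Bhlhe41, was lower on both, as were 40.1%. In 5 of the 8 both MN arrays lay above both control arrays, which 13.2% of all genes did, and in Bhlhe41 both lay below, which 19.8% did. The median difference of the 8 was 0.21 on the log2 scale, beside -0.05 over all genes tested, of which 38.6% had a higher value in MN. A difference of 0.5 or more was reached by 2 of the 8, Ciart and Nfil3, and by 4.52% of all genes, and one of -0.5 or less by 0 of the 8 and by 7.2% of all genes.

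**Figure D1:**
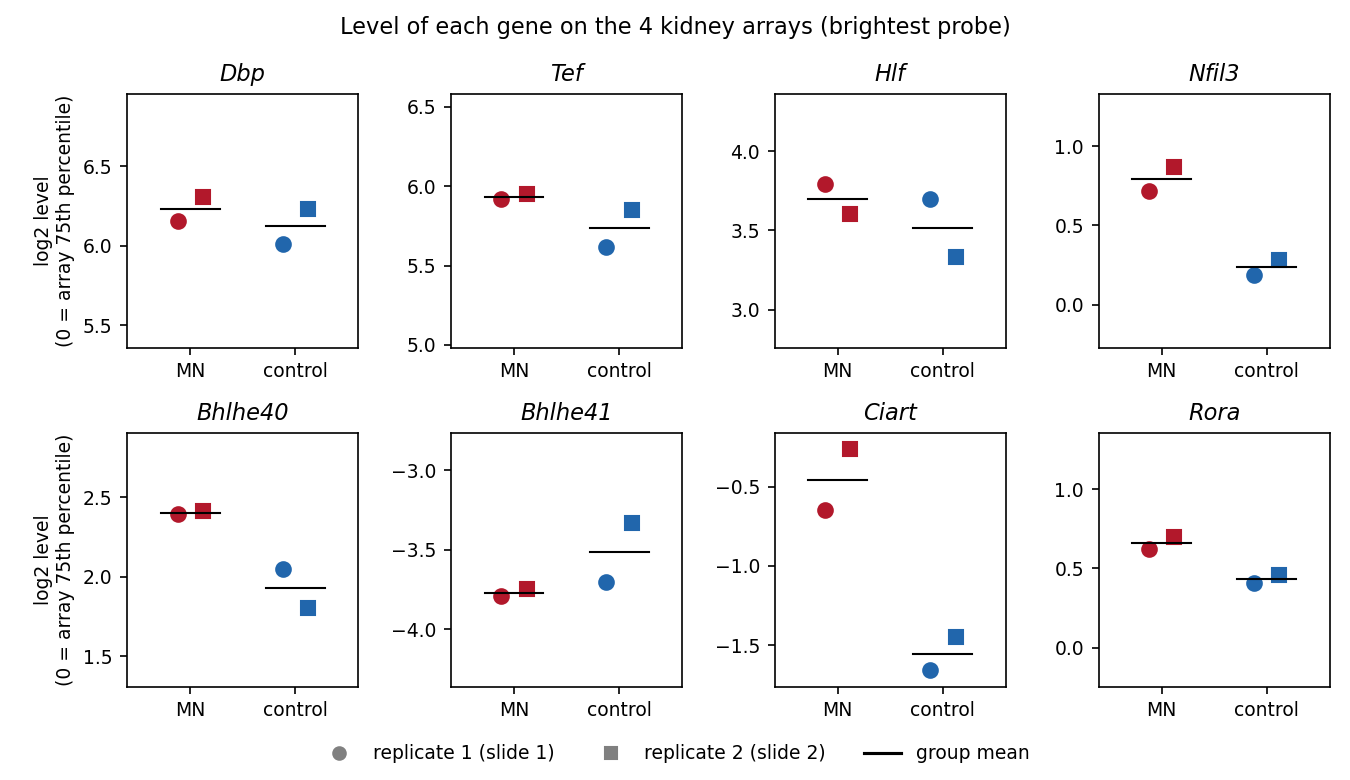
Log2 level of each of the 8 genes (0 is the array's 75th percentile) on each array, MN left and control right, with circles for replicate 1, squares for replicate 2 and a bar for the group mean. Every panel spans the same log2 range. The MN points lie above both control points for Ciart, Nfil3, Bhlhe40, Tef and Rora, below them for Bhlhe41, and overlap them for Dbp and Hlf.

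Ciart encodes a repressor of CLOCK and BMAL1. Its probe (mm9 chr3:95682433-95682492) had log2 levels of -0.65 and -0.27 on the MN arrays, against -1.65 and -1.45 on the control arrays. The lower MN array was well clear of the higher control array. The difference was 1.09 ± 0.20 (log2, SE; 95% interval 0.53 to 1.65; adjusted p = 0.405 with limma), with 1.01 within slide 1 and 1.18 within slide 2, and its size lay at percentile 97.9 of all absolute differences. Without the second control array it was 1.20. Since Ciart is switched on through E-boxes in mouse, the sequence before its start is shown with each CACGTG in capitals, for the 250 bases at GRCm38.p6 chr3:95882229-95882478 on the minus strand, read toward the gene.
Ciart: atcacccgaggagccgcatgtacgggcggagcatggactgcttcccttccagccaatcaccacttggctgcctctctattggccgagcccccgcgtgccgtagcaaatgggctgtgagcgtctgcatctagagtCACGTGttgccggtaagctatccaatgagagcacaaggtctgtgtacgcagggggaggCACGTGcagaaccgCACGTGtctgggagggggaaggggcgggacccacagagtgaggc
The 3 matches begin at positions -116, -58 and -44 from the start. At least 1 CACGTG, which reads the same on both strands, occurred in 7.15% of 32851 RefSeq promoter windows of the same 300 bases (250 before the start and 50 from it), and 2 or more in 0.594%. These shares were not matched for base content. Member windows with a CACGTG were from 61.3% (Ciart) to 70.7% (Bhlhe41) G and C, against a median of 52.7% over all windows.

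The remaining E-box repressors had differences of opposite sign. Bhlhe40, which encodes DEC1, had log2 levels of 2.39 and 2.41 in MN, against 2.05 and 1.80 in control (probe at mm9 chr6:108616309-108616368). The MN arrays lay close together and above both control arrays. The difference was 0.48 ± 0.16 (95% interval 0.04 to 0.92; adjusted p = 0.664), 0.34 within slide 1 and 0.61 within slide 2, and 0.35 without the second control array. Its paralogue Bhlhe41, which encodes DEC2, had dim values of -3.79 and -3.75 in MN, against -3.70 and -3.33 in control, from the brighter of its probes (mm9 chr6:145811275-145811334). The groups did not overlap, with MN minus control of -0.09 on slide 1 and -0.41 on slide 2. The difference was -0.25 ± 0.19 (95% interval -0.77 to 0.26; adjusted p = 1), and it came to -0.07 without the second control array and -0.44 without the first. The second probe of Bhlhe41, further toward the 5′ end of the transcript (mm9 chr6:145812652-145812711), was well above background on 1 of the 4 arrays, the second control array, and did not enter the test. Its values of -7.14 and -7.05 in MN, against -5.22 and -5.92 in control, rest on signals near background and give no fold. The difference of Bhlhe40 exceeded that of the tested Bhlhe41 probe by 0.73, a contrast in which 1 scaling factor per array cancels, though normexp or quantile normalization does not, and which was not tested.

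The promoter window of Bhlhe41 also held a CACGTG, at position -153 (GRCm38.p6 chr6:145865421-145865670, minus strand), and is shown as that of another E-box repressor. Whether the element bears on the values of Ciart or Bhlhe41 was not tested. The capitals mark the match.
Bhlhe41: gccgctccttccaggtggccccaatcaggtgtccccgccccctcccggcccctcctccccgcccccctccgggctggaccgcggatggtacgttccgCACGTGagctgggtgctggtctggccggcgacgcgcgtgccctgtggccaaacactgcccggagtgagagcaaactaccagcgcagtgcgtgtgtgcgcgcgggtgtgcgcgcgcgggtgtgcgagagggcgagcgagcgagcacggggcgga

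Nfil3, the D-box repressor, had the second widest difference. Its probe (mm9 chr13:53062578-53062637) gave log2 levels of 0.72 and 0.87 in MN, against 0.19 and 0.29 in control. Both MN arrays lay above both control arrays, and the gap between groups was larger than that within either. The difference was 0.56 ± 0.15 (95% interval 0.15 to 0.96; adjusted p = 0.551), with 0.53 and 0.59 within slides 1 and 2 and 0.60 without the second control array. The core of the element bound by ROR and REV-ERB proteins, searched as TAGGTCA or TGGGTCA on both strands, occurred once in the Nfil3 window, as its reverse complement TGACCTA at position -12. It is shown in capitals in the 250 bases at GRCm38.p6 chr13:52981040-52981289 (minus strand) because Nfil3 is a known REV-ERB target in mouse.
Nfil3: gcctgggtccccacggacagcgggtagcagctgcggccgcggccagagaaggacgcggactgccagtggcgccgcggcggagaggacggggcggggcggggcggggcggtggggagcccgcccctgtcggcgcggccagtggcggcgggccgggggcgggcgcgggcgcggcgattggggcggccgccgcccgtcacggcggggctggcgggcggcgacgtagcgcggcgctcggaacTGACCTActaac
These letters were found in 6.45% of all windows. The Nfil3 window was made up of G and C at 81.7%, against a median of 52.7% over all windows.

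The 3 PAR bZIP activators, which bind the D-box against NFIL3, had small positive differences. Dbp was measured at 6.16 and 6.31 in MN, against 6.01 and 6.23 in control, by a probe at mm9 chr7:52965322-52965381, and at 6.24 and 6.21 in MN, against 6.06 and 5.98 in control, by a probe 3′ of it at mm9 chr7:52965461-52965520. By the first probe the groups overlapped, and by the second they did not. The first gave a difference of 0.11 ± 0.16 (95% interval -0.34 to 0.56; adjusted p = 1) and the second, fitted over all 36262 probes that passed, 0.20 ± 0.14 (adjusted p = 0.961). Without the first control array the first probe's difference was 2.93e-05, and without the second it was 0.22.

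Tef was at 5.92 and 5.95 in MN, against 5.62 and 5.85 in control (probe at mm9 chr15:81657221-81657280). Its MN arrays lay above both control arrays, the second control array by 0.10 on its slide. The difference was 0.20 ± 0.15 (95% interval -0.23 to 0.63; adjusted p = 1), with 0.08 without the first control array and 0.32 without the second. Hlf was at 3.79 and 3.60 in MN, against 3.70 and 3.33 in control (probe at mm9 chr11:90200696-90200755), with overlapping groups. On both slides its MN value was the higher, by 0.10 and 0.27, while slide 2 lay below slide 1 in both groups. The difference was 0.18 ± 0.20 (95% interval -0.36 to 0.73; adjusted p = 1), with 0.0013 without the second control array and 0.37 without the first. For the 3 activators the intervals reach up to 0.56, 0.63 and 0.73, so an adjusted p of 1 does not show that these genes were equal between the groups.

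Each of the 2 RefSeq start sites of Tef had 1 CACGTG before it, at position -127 in the first window and -138 in the second. Both are shown with the match in capitals, for GRCm38.p6 chr15:81802423-81802672 and chr15:81811164-81811413, plus strand.
Tef first start: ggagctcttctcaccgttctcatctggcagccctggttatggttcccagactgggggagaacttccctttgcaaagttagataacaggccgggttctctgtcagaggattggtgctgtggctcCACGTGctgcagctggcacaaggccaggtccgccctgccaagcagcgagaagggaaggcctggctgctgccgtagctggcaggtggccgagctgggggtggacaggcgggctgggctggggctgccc
Tef second start: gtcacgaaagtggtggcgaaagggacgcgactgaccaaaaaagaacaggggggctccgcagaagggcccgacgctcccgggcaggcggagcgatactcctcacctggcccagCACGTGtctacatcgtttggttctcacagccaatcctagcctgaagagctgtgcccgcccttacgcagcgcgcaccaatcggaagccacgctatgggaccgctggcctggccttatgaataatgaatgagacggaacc
The windows of Dbp, Hlf and Rora held no match to either element, and no window of the 7 members found in the RefSeq table held a D-box spelled TTATGTAA or TTACGTAA on either strand, which 1.06% of all windows did. A missing match says only that these letters are not in these bases.

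**Figure D2:**
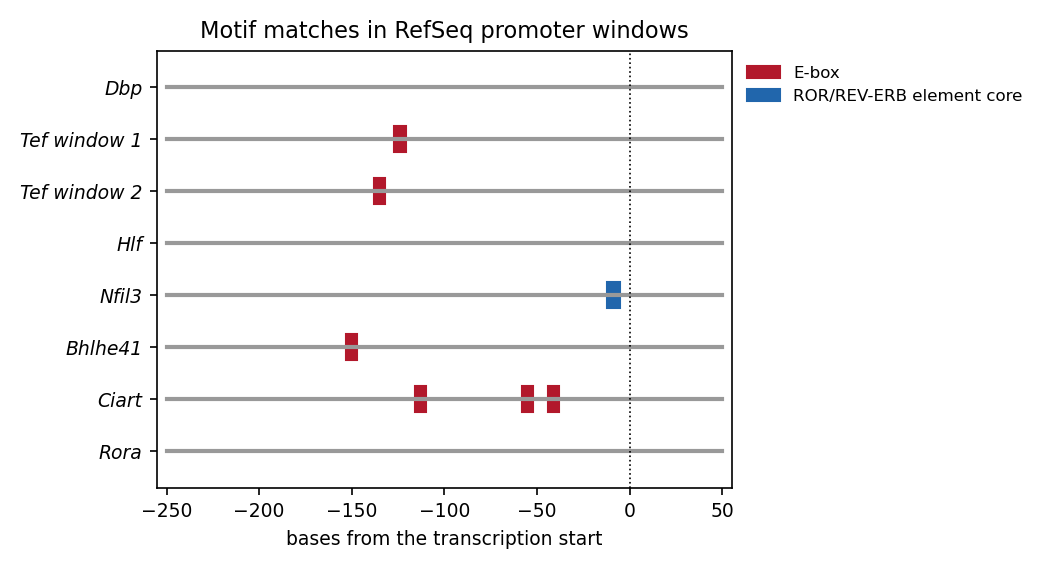
Positions of motif matches in the RefSeq promoter windows (250 bases before to 50 after the start; x axis in bases from the transcription start, dotted line). Red boxes are E-boxes (CACGTG) and the blue box is the ROR and REV-ERB element core; Ciart has 3 E-boxes, Tef 1 in each of its 2 windows, Bhlhe41 1, and Nfil3 the single blue match.

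The D-box activators were also set against their repressor by their differences. The mean log2 value of Dbp, Tef and Hlf minus that of Nfil3 had an MN minus control difference of -0.39, with -0.34 on slide 1 and -0.44 on slide 2. Because the members were chosen with earlier results known, no test of this contrast was made. The differences of Dbp, Tef and Hlf ran from 0.11 to 0.20, against 0.56 for Nfil3.

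Rora encodes the nuclear receptor that activates Arntl. Its brighter probe, which the files assign to transcript variant 1 (mm9 chr9:69226774-69226833), gave log2 levels of 0.62 and 0.70 in MN, against 0.41 and 0.46 in control. The replicates lay close together and the groups did not overlap. The difference was 0.23 ± 0.14 (95% interval -0.15 to 0.60; adjusted p = 0.938), 0.21 within slide 1 and 0.24 within slide 2. The dimmer probe, assigned to variant 3 (mm9 chr9:68511835-68511894), was at -4.37 and -4.13 in MN, against -4.52 and -4.00 in control. It overlapped between groups, had opposite signs on the slides (0.15 and -0.13) and gave 0.01 ± 0.24 in the fit over all probes (adjusted p = 1). A higher value in MN on both slides was thus seen with the first Rora probe only.

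**Figure D3:**
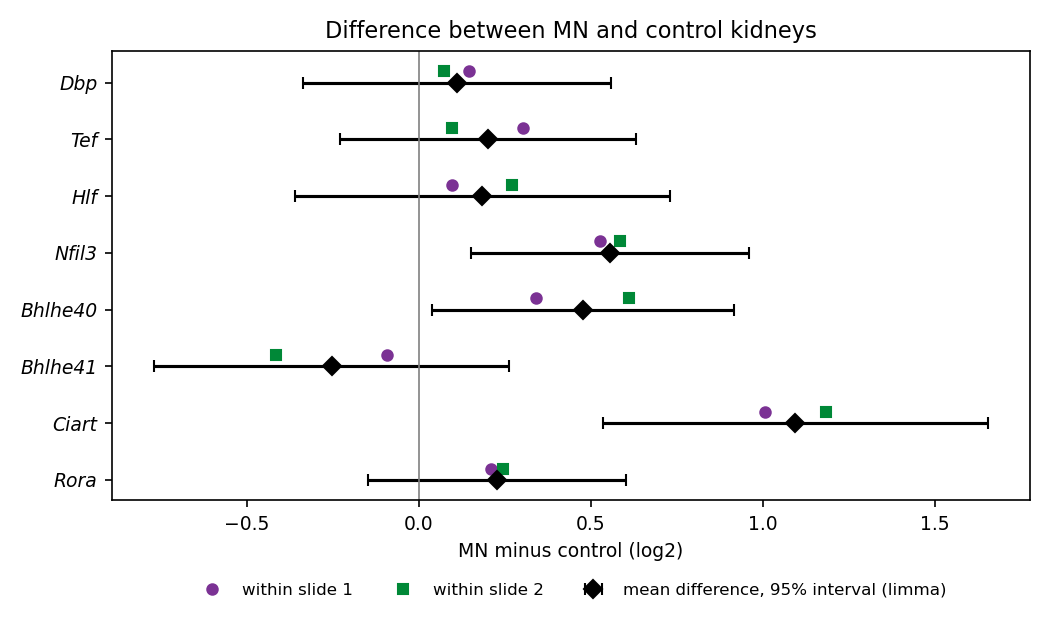
MN minus control difference of each gene on the log2 scale, as the mean with limma's 95% interval (black diamonds) and within slide 1 (circles) and slide 2 (squares). The intervals of Ciart, Nfil3 and Bhlhe40 lie above 0 before any adjustment for the number of genes; those of the other 5 include 0.

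In the order of their differences the members ran Ciart (1.09), Nfil3 (0.56), Bhlhe40 (0.48), Rora (0.23), Tef (0.20), Hlf (0.18), Dbp (0.11) and Bhlhe41 (-0.25). Each one's estimate lay inside the 95% interval of its neighbour below except that of Ciart, which lay above the interval of Nfil3. Ciart differed by 0.54 more than Nfil3, which was not tested.

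**Figure D4:**
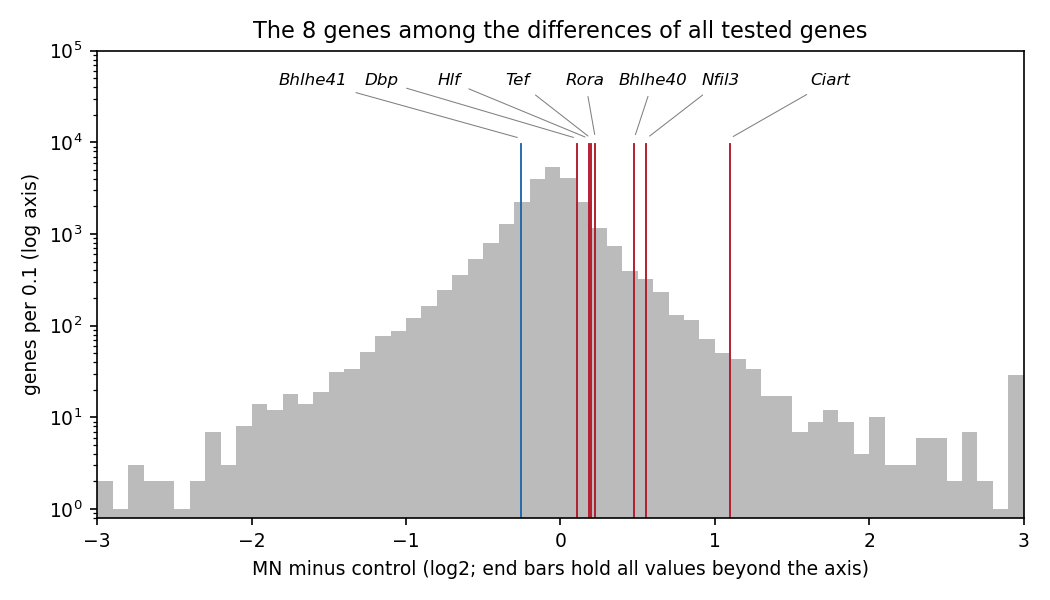
Differences of all 25296 tested genes (grey bars, genes per 0.1 log2 unit on a log axis, with values beyond the axis in the end bars) and of the 8 genes (vertical lines, red where higher in MN and blue where lower). Ciart lies at percentile 99.1 of the differences, Nfil3 at 96.2, Bhlhe40 at 95.2 and Bhlhe41 at 19.1.

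The pattern over the 4 arrays was set against that of 15079 named genes well above background on all arrays, by the root mean square difference of levels centred on each gene's mean. The nearest to Ciart were the chemokine gene Cxcl1 (0.022) and Inf2 (0.042), and 7 genes lay within 0.1. The nearest to Nfil3 were Tesk2 (0.013), Ccn2 (0.026) and Axl (0.027), and 151 genes lay within 0.1. For Bhlhe40 they were Nlrc4 (0.024), Ptp4a3 (0.026) and Inha (0.027), with 208 genes that near. The count within a fixed distance depends on how much a member itself varied. The root mean square of its centred levels was 0.57 for Ciart, against 0.11 for Dbp and 0.18 for Bhlhe41. The 5 members with smaller differences had many genes within the same distance. These were 1810 for Dbp (nearest Galnt14, Acer2 and Btbd16), 1402 for Rora (Topbp1, Rapgef1 and Sf1), 1361 for Hlf (Gas8, Dnaja4 and Bace2), 1039 for Tef (Rbm45, Zfp612 and Acsbg1) and 643 for Bhlhe41 (Il12rb1, Olfr557 and Lrrc10). The measure rests on 4 arrays.

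Values of the core loop on which these factors act stand beside them. Of 17 core clock genes outside the 8, 7 had higher and 10 lower values in MN (median -0.07, and 0.02 without either the second MN or the first control array), 0 passed in either direction with limma, and before adjustment 2 had a higher and 2 a lower value with p under 0.05, beside 3.55% and 3.49% of all genes. When slide was a block these counts were 3 and 3, beside 6.28% and 9.04%. Of the 17, 15 were well above background on all 4 arrays. Per2, a repressor switched on through E-boxes, was at -0.11 and 0.16 in MN, against -1.11 and -1.13 in control (difference 1.15 ± 0.16, adjusted p = 0.344). Arntl, the RORA target, was at -3.20 and -3.41 in MN, against -2.12 and -2.21 in control (difference -1.14 ± 0.15, adjusted p = 0.318). On both slides its sign was opposite to that of Ciart and of the brighter Rora probe. The dimmer Rora probe was itself of opposite signs on the slides. The REV-ERB genes Nr1d1 and Nr1d2 had differences of opposite sign. Nr1d1, counted above among the 2 with a lower value, was at -0.59 ± 0.20 (adjusted p = 0.689 with limma). Nr1d2 was at 0.57 ± 0.28 (adjusted p = 0.851 with limma). Per1 and Cry2 were near 0, at 0.09 ± 0.17 and 0.07 ± 0.18. Cry1 and Npas2, the 2 not well above background on all 4 arrays, passed the filter through 1 group and get no fold here. Cry1, counted above among the 2 with a higher value, was at -4.59 and -4.10 in MN, against -6.12 and -5.46 in control, and well above background on 1 control array. Npas2 was at -4.42 and -6.28 in MN, against -3.73 and -4.21 in control, and well above background on 1 MN array.

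Of 15 genes known to be rhythmic or to depend on the clock or on PAR bZIP factors in liver or kidney, 8 had higher and 7 lower values in MN (median 0.14, and 0.02 without the second control array). Of these 0 passed with limma, and 4 had a higher and 0 a lower value with p under 0.05 before adjustment (5 and 0 when slide was a block), beside the same shares of all genes. These 4 were Tsc22d3, a glucocorticoid-induced regulator (0.87 ± 0.18), Alas1, the first enzyme of haem synthesis (0.52 ± 0.13), the cell cycle kinase Wee1 (0.51 ± 0.14) and Sgk1, a kinase of sodium transport (0.51 ± 0.13), with adjusted p from 0.432 to 0.555. Alas1, Por and Nr1i3 depend on PAR bZIP factors in mouse liver. Beside the positive value of Alas1, Por was at -0.11 (95% interval -0.55 to 0.32) and Nr1i3 at -0.22 (95% interval -0.65 to 0.20), and both intervals include 0. Among the kidney transport genes, Scnn1a, a sodium channel subunit, was at 0.14 ± 0.13, the vasopressin receptor gene Avpr2 at 0.23 ± 0.13, and the water channel genes Aqp2 and Aqp4 at -0.09 ± 0.17 and -0.01 ± 0.22.

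**Figure D5:**
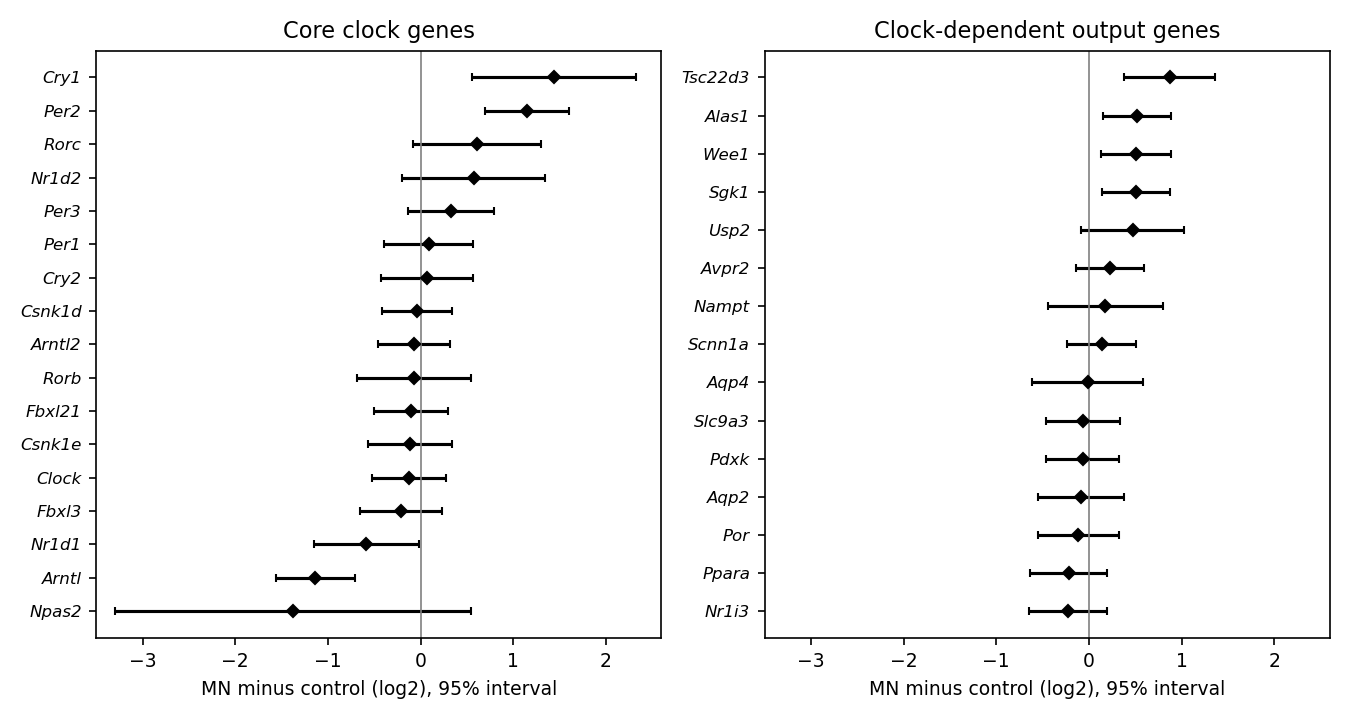
MN minus control differences (log2, diamonds) with limma's 95% intervals for 17 core clock genes (left) and 15 clock-dependent output genes (right). Per2 and Arntl lie far from 0 on opposite sides, Cry1 and Npas2 were well above background on 3 of the 4 arrays only, and the 4 highest output genes have intervals above 0 before adjustment.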

How the data were processed

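Kidney RNA of 2 MN and 2 control samples was measured on 1-colour Agilent arrays. Each deposited scanner file gives a linear intensity per spot. The authors ran Agilent Feature Extraction 10.5.1.1 with spatial and multiplicative detrending and surrogate values on, and its background correction switch off, per the file headers. The deposited value table holds log2 values relative to the control mean, as its comparison with the scanner intensity shows; no label or header says how it was made, and it served only as an alternative.

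Control spots and spots marked non-uniform were left out, and log2 signal minus each array's 75th percentile was used. Probes had to be well above background in at least 1 group, on both of its arrays; the brightest probe stood for each gene. Genes were named through a RefSeq table (GRCm38.p6). Differences were tested two-sided with lmFit and eBayes (limma 3.58.1, R 4.3.3). They were adjusted by Benjamini-Hochberg over all genes at a threshold of 0.05, after a check of the fit on simulated data. The simulated arrays varied independently and the changes put in were 1 or more on the log2 scale. The check therefore does not cover smaller differences or arrays that share a slide. Tables and figures used Python 3.11.15 and matplotlib 3.10.9. Slide, scan and replicate number coincide (per the file headers), and arrays of the same number deviated together from the group means (r = 0.626 over genes); the block is therefore a slide block. Promoter sequences are RefSeq's (GRCm38.p6). The table gave windows for 7 of the 8 members; for Bhlhe40 none is shown.

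The members and lists were chosen with earlier results of these data known. Named genes were all members with all probes, up to 4 core clock and 4 output genes with the largest differences, and the 3 nearest profiles of each member, of which 1 is not reported here. Nr1i3, Por, Scnn1a, Avpr2, Aqp2, Aqp4, Slc2a4, Cfd, Cidec, Plin1, Lipe and Lep were named after their values were seen. So were Nr1d1, Nr1d2, Per1, Cry2, Jchain, Derl3, Mzb1, Sdc1 and Prdm1. Alternatives were normexp, quantile or median scaling, the deposited table, other filters and probe rules, the slide block, another variance model, a threshold of 0.1 and each array left out. With 2 arrays a group, precision is limited throughout.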

Additional observations from a re-analysis of the deposited data

How the results depend on the processing

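None of the 8 genes passed the threshold under any alternative run, and none changed sign. Several runs could not change a sign. The block and the other variance model leave the difference as it is, and the other filters kept the same probe of each member. The probe rules leave members with 1 passing probe as they are. The deposited table and median scaling moved all members alike by a small amount (Dbp from 0.110 to 0.105 and 0.125). Leaving out an array cannot reverse a gene whose groups do not overlap. Over the 14 alternatives with a value, the difference ran from 0.90 to 1.29 for Ciart (adjusted p 0.169 to 1), 0.48 to 0.63 for Nfil3 (0.201 to 1), 0.35 to 0.60 for Bhlhe40 (0.262 to 1) and -0.44 to -0.07 for Bhlhe41 (0.471 to 1). It ran from 2.93e-05 to 0.22 for Dbp, 0.08 to 0.32 for Tef, 0.0013 to 0.37 for Hlf and 0.0097 to 0.27 for Rora, whose lowest value came from its dimmer probe. With each array left out in turn, 7 to 7 members were higher in MN and 0 to 0 passed. These fits leave 1 group with a lone array that is assumed to vary like the other group. With the replicate block, which is the slide block, 0 members passed, the smallest adjusted p among them was 0.169, and 3 had an unadjusted p under 0.05, the same count as without it. Over all genes the count of higher calls was 5; it was 15 with normexp, 20 with quantile normalization, 11 with scaling to the median, 16 with the trended robust variance and 22 at a threshold of 0.1. It was 0 without a filter, 0 with a filter on all 4 arrays, 0 with the block and 0 to 0 with each array left out, and the cause was not tested. The count of lower calls was 0 at every setting, with 884 at an unadjusted p under 0.05 in limma without a block. No scaling moved the median over all genes by more than 0.1 (-0.0666 to -0.0241 across normexp, quantile, median scaling and the deposited table). The median of the 17 core clock genes was -0.07, and 0.02 without MN replicate 2 or without control replicate 1. The median of the 15 output genes, 0.14, was 0.02 without control replicate 2, 0.04 without MN replicate 1 and 0.23 without control replicate 1.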
